A study of Homo sapiens with 6 samples.

Results

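The RAS, RAF, MEK and ERK cascade was followed at the level of its transcripts through 7 genes: the GTPase genes HRAS and NRAS, the RAF kinase genes ARAF and BRAF, the MEK genes MAP2K1 and MAP2K2, and MAPK3, which encodes ERK1. The genes were chosen by name among the 24294 loci of the deposited table, whose unit is FPKM (fragments per length of transcript and per size of library). NRAS has no value of its own in the table. The loci of the other 6 genes averaged 1 FPKM or more across the 6 libraries and were tested. The libraries came from MCF12A, labelled a breast cancer line and otherwise known as an immortalized, non-tumorigenic line of human mammary epithelium. A stable construct for miR-424 was present in the cells of 3 libraries and its empty vector (EV) in those of the other 3, and all cultures had grown for 48 hours. The labels name no promoter and do not say whether a group was 1 transduced pool, 1 clone or several, so each p-value rests on the spread of these libraries alone, which may be technical.

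In this cascade, receptor signals load RAS proteins with GTP at the plasma membrane, and GTP-bound RAS recruits RAF kinases. RAF phosphorylates MEK, MEK phosphorylates ERK, and ERK enters the nucleus and drives transcription of growth genes together with feedback inhibitors. In mammary epithelium the pathway acts below the EGF receptor family and controls proliferation and motility. Its activity is set by phosphorylation and GTP loading, which were not measured here, and the values below describe transcript levels alone. In bulk cultures, fewer cells with a transcript and less of it per cell cannot be told apart.

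The construct carries a microRNA, so its sequence and the matches to its seed in the members' 3' UTRs are shown first, as the letters against which the levels can be read. The mature strand is miR-424-5p, written 5′ to 3′ with the seed (bases 2 to 8) in capitals. It is encoded on the minus strand at chrX:134546680-134546701 (RefSeq, GRCh38.p14).
miR-424-5p: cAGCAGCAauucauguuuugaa
The transcript strand of 3' UTRs was searched for TGCTGCT, which pairs with bases 2 to 8, for GCTGCTA, which pairs with bases 2 to 7 and adds an A, and for TGCTGCTA, which holds both. For each gene, the longest 3' UTR among the GENCODE 29 (GRCh38) transcripts linked to the RefSeq transcripts of its locus was used. Where none was linked, all transcripts of the gene were taken. MAP2K1, which has been reported as a target of miR-424, held the 8-letter match at bases 463 to 470 of a 3' UTR of 1697 nt (chr15:66491078-66491085, plus strand). MAPK3 held a pair of 7-letter matches that overlap each other, at bases 251 to 257 and 254 to 260 of 636 nt (chr16:30114484-30114490 and chr16:30114481-30114487, minus strand). The matches are in capitals below, with the flanking letters in lower case.
MAP2K1 463 to 470: gaagcatgcttTGCTGCTAtgaaaatgagc
MAPK3 251 to 257: caatctcccgcTGCTGCTgctgcgccctt
MAPK3 254 to 260: tctcccgctgcTGCTGCTgcgcccttacc
The other 5 genes held 0 matches of 7 or 8 letters, in 3' UTRs of 532 nt (HRAS), 3625 nt (NRAS), 621 nt (ARAF), 3932 nt (BRAF) and 277 nt (MAP2K2). The one used for ARAF belongs to a short isoform. Of 10395 tested loci with 1 symbol and a 3' UTR, 26.9% held a 7- or 8-letter match and 4.6% the 8-letter match. Among 3' UTRs of 1001 to 2000 nt, the class of MAP2K1, 3.4% held the 8-letter match, and among those of 501 to 1000 nt, the class of MAPK3, 16.2% held one of 7 or 8 letters. A match is a description of letters and not a measured binding site.

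The table was checked against the labels before the members were read. The microRNA's host locus, MGC16121/MIR424, was at 0.989, 1.27 and 1.23 FPKM in EV replicates 1, 2 and 3 and at 107, 106 and 224 FPKM in the miR-424 replicates. The locus was thus higher in every miR-424 library, and highest in replicate 3. This row does not separate reads of the construct from those of the host transcript, and it does not measure the mature microRNA. Of 9 mammary epithelial markers 6 had a mean of at least 1 FPKM, among them KRT8 (164 ± 4.27 FPKM in EV, SD, n = 3) and KRT18, while CDH1, which encodes E-cadherin, was at 0.0228 ± 0.0142 FPKM. Of 7 fibroblast markers 2 reached 1 FPKM (COL1A1 and DCN), and 0 of 4 leukocyte and 0 of 4 endothelial markers did. The fibroblast markers summed to 156 to 166 FPKM in EV and to 164 to 186 FPKM in miR-424 libraries, and the epithelial markers to 319 to 334 and 288 to 319 FPKM, with KRT5 lower (63.7 ± 2.27 to 40.7 ± 3.22 FPKM) and KRT14 and COL1A1 higher past the threshold used below. The part of these markers in the results was not tested. The sums of FPKM lay between 409776 and 424564, and the depth in reads is unknown. The miR-424 replicate 3 stood apart. It differed from miR-424 replicates 1 and 2 by a median of 0.142 and 0.152 (absolute log2 difference over loci), while these 2 differed by 0.0408 and no EV pair by more than 0.0417.

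None of the 6 cascade loci passed the test between miR-424 and EV cells with all 6 libraries. By limma on log2(FPKM + 1), 0 of 6 passed a Benjamini-Hochberg adjusted p of 0.05, where 7.56% of the 11574 tested loci passed (144 higher and 731 lower). At an unadjusted p under 0.05, 1 of 6 passed (ARAF), where 23.6% of all tested loci did. The log2 changes lay between -0.16 and 0.06 with a median of -0.09, and over all tested loci the median was -0.05. All 95% intervals of this fit lay within -0.38 and 0.21 on this log2 scale. They bound a difference between these libraries in this setting alone and do not show that the groups were alike. With 1 library left out, intervals reached -0.46 (MAP2K1, without miR-424 replicate 1) and 0.27 (BRAF, without EV replicate 3). With miR-424 replicate 3 left out, 4 of 6 passed (HRAS, ARAF, MAP2K2 and MAPK3, all lower), at a background that had grown to 37.2% of loci. With a trend on transcript GC content removed from each library, 0 of 6 passed by limma, at a background of 13.1%, and 0 had an unadjusted p under 0.05, where 29.8% of all tested loci did. With libraries weighted by their fit, 3 of 6 passed (HRAS, ARAF and MAPK3, all lower), at a background of 30.8%.

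**Figure D1:**
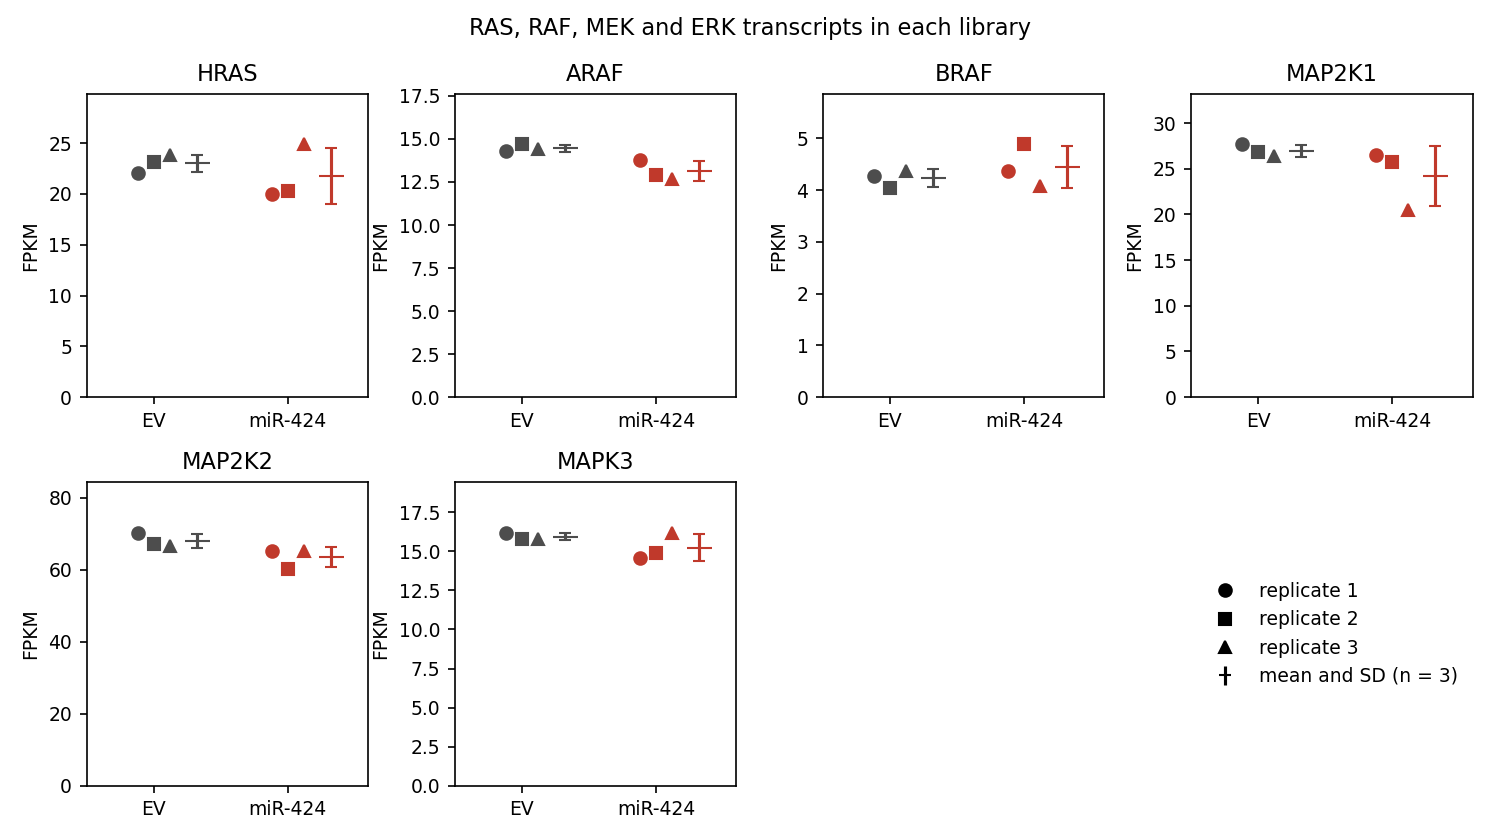
FPKM (linear axes from 0, 1 panel per locus) in each of the 3 EV (grey) and 3 miR-424 (red) libraries, with circles for replicate 1, squares for 2, triangles for 3 and the mean and SD (n = 3) at the right of each group. The miR-424 replicate 3 lies apart from replicates 1 and 2 for HRAS and MAP2K1, and the groups overlap in 4 of 6 panels.

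At the level of RAS, HRAS was below the EV range in 2 of 3 miR-424 libraries and above it in the other. HRAS, which encodes a membrane-anchored GTPase (chromosome 11, 532241 to 535550, hg19, as for all loci below), was at 22.1, 23.1 and 23.8 FPKM in EV replicates 1, 2 and 3. In miR-424 cells it read 20.0, 20.3 and 24.9 FPKM. Replicates 1 and 2 thus lay below every EV library and replicate 3 above every EV library. The log2 change came to -0.08 ± 0.09 (SE; Benjamini-Hochberg adjusted p by limma = 0.623), with a 95% interval of -0.29 to 0.12. Without replicate 3 it was -0.18 (adjusted p = 0.00624), and with the GC trend also removed -0.05 (adjusted p = 0.371; limma in both).

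Of the RAF kinases, ARAF was lower in every miR-424 library by a small amount. ARAF encodes the RAF family member with the weakest kinase activity, and its locus (chromosome X, 47420498 to 47479256) was at 14.3, 14.7 and 14.4 FPKM in EV, against 13.8, 12.9 and 12.7 FPKM in miR-424 replicates 1, 2 and 3. The groups did not overlap, as was true of 2 of 6 loci, ARAF and MAP2K2, both lower; of all tested loci 33.5% did not overlap, and 26.9% did so in this direction. The log2 change was -0.13 ± 0.04 (SE; 95% interval -0.23 to -0.02), with an unadjusted p of 0.0237 and a Benjamini-Hochberg adjusted p of 0.139 by limma. Without replicate 3 it passed at -0.11 (adjusted p = 0.0421), and with the GC trend also removed it did not (-0.05, adjusted p = 0.254; limma).

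BRAF, the RAF gene with the strongest basal kinase activity of its product (chromosome 7, 140433812 to 140624564), had the lowest level of the cascade. It was at 4.27, 4.05 and 4.38 FPKM in EV, against 4.37, 4.89 and 4.09 FPKM with miR-424. The groups overlapped, with replicate 2 above and the other 2 within the EV range. The log2 change came to 0.06 ± 0.06 (SE; adjusted p by limma = 0.657; 95% interval -0.09 to 0.21), and BRAF passed in 0 of 16 alternative settings. Within a library, the ratio of BRAF to ARAF was 0.298, 0.276 and 0.304 in EV and 0.317, 0.379 and 0.321 in miR-424 cells. Every miR-424 library had the higher ratio, and the exact permutation test (two-sided) gave p = 0.1, the smallest it can give for 3 against 3 (0.2 after Benjamini-Hochberg adjustment over 2 ratios). The log2 difference of this ratio was 0.21, and 0.18 with the GC trend removed, where the exact p was 0.3.

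MAP2K1, which encodes MEK1 and holds the 8-letter match printed above, was low in 1 miR-424 library. Its locus (chromosome 15, 66679210 to 66790146) was at 27.7, 26.8 and 26.4 FPKM in EV replicates and at 26.5, 25.7 and 20.5 FPKM in miR-424 replicates 1, 2 and 3. Replicate 1 lay inside the EV range, replicate 2 just under it and replicate 3 far under it. Replicate 3 is also the library with 224 FPKM at the MIR424 host locus, against 107 and 106 in the other 2, and the library that stands apart over all loci; the part of either in the low value was not tested. The log2 change of MAP2K1 was -0.16 ± 0.09 (SE; limma, Benjamini-Hochberg adjusted p = 0.380; 95% interval -0.38 to 0.07). Without replicate 3 it was -0.04 (adjusted p = 0.260, interval -0.11 to 0.02), and MAP2K1 passed in 0 of 17 alternative settings. For comparison, the median log2 change was -0.08 over the 474 loci with an 8-letter match, -0.06 over 2320 loci with a 7-letter match alone and -0.04 over 7601 loci with neither. Without replicate 3 these medians were -0.03, -0.03 and -0.01. With the GC trend removed and all libraries kept, they were -0.04, -0.01 and 0.01.

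MAP2K2, which encodes MEK2 (chromosome 19, 4090319 to 4124126), was the more abundant MEK transcript, at 70.3, 67.0 and 66.7 FPKM in EV, against 65.1, 60.3 and 65.3 FPKM with miR-424. The groups did not overlap, and their nearest libraries were 66.7 and 65.3 FPKM. The log2 change came to -0.10 ± 0.05 (SE; adjusted p by limma = 0.274; 95% interval -0.21 to 0.01). It changed sign when the GC trend was removed (0.01 ± 0.03, adjusted p = 0.844, limma). The ratio of MAP2K1 to MAP2K2 was 0.394, 0.400 and 0.396 in EV, 0.407 in miR-424 replicate 1, 0.426 in replicate 2 and 0.313 in replicate 3 (exact permutation test, two-sided, p = 1). Its log2 difference was -0.07. It turned to 0.07 without replicate 3, and was -0.12 with the GC trend removed, where the exact p was 0.1, the smallest possible.

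MAPK3, the ERK1 gene with the pair of overlapping 7-letter matches (chromosome 16, 30125425 to 30134630), was at 16.2, 15.8 and 15.8 FPKM in EV, against 14.6, 14.9 and 16.2 FPKM in miR-424 replicates 1, 2 and 3. Replicates 1 and 2 lay below the EV libraries and replicate 3 at the upper end of them. The log2 change came to -0.06 ± 0.05 (SE; adjusted p by limma = 0.536; 95% interval -0.18 to 0.06). Without replicate 3 it was -0.10 (adjusted p = 0.0229), and with the GC trend also removed -0.01 (adjusted p = 0.880; limma in both).

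The order of the mean FPKM was the same in both groups: MAP2K2, MAP2K1, HRAS, MAPK3, ARAF and BRAF. FPKM is per length but does not adjust for other differences between genes, such as GC content, so the order is that of the deposited values. In EV the means ran from 68.0 ± 1.98 FPKM for MAP2K2 to 4.23 ± 0.169 FPKM for BRAF (SD, n = 3), and no neighbours in the order overlapped. In miR-424 cells MAP2K1 (20.5 to 26.5 FPKM) and HRAS (20.0 to 24.9 FPKM) overlapped and cannot be ordered, while the other neighbours did not overlap. Among the tested loci, the mean level over the 6 libraries placed MAP2K2 at the 90.6th percentile and BRAF at the 25.0th. The spread within miR-424 was wider than within EV for each of the 6 loci, with a coefficient of variation of 13.6% against 2.40% for MAP2K1 and 12.7% against 3.65% for HRAS. The share of all tested loci with a wider spread was not computed. Over all loci, replicate 3 differed from the other miR-424 libraries by a median of 0.142 and 0.152, and EV libraries by at most 0.0417 (absolute log2 difference). The wider spread is thus not shown to be particular to the cascade.

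The members differed in base composition. HRAS, MAP2K2 and MAPK3 transcripts had a GC content of 65.5%, 65.5% and 61.5%, ARAF and MAP2K1 of 54.1% and 50.4%, and BRAF of 41.1%. Over all tested loci, the median log2 deviation from the EV mean went from 0.07 (miR-424 replicate 1) and 0.09 (replicate 2) at 40% GC or less to -0.13 and -0.16 above 65%, and in replicate 3 from -0.22 to -0.07. HRAS deviated by -0.20, -0.17 and 0.11 and BRAF by 0.04, 0.17 and -0.04 in replicates 1, 2 and 3. The difference of replicate 3 from the mean of replicates 1 and 2 was 0.29 for HRAS, at the 97.1th percentile of all tested loci, and -0.34 for MAP2K1, at the 10.5th. The same difference was 0.06 for MAP2K2, which has the GC content of HRAS, and -0.14 for BRAF, which has the lowest GC content of the 6 loci. The part of GC content in these differences was not tested. The GC trend was fitted to the deviation of each library from the EV mean. Its removal would thus also take away a group difference that follows GC content. Once the GC trend was removed, the log2 changes of HRAS, MAP2K2 and MAPK3 were 0.02, 0.01 and 0.02 with all libraries, and -0.05, 0.01 and -0.01 without replicate 3. Of the 4 calls made without replicate 3, 0 passed by limma with the trend removed as well, at a background of 29.4%. In that setting 0 of the 6 loci had an unadjusted p under 0.05, where 42.2% of all tested loci did.

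**Figure D2:**
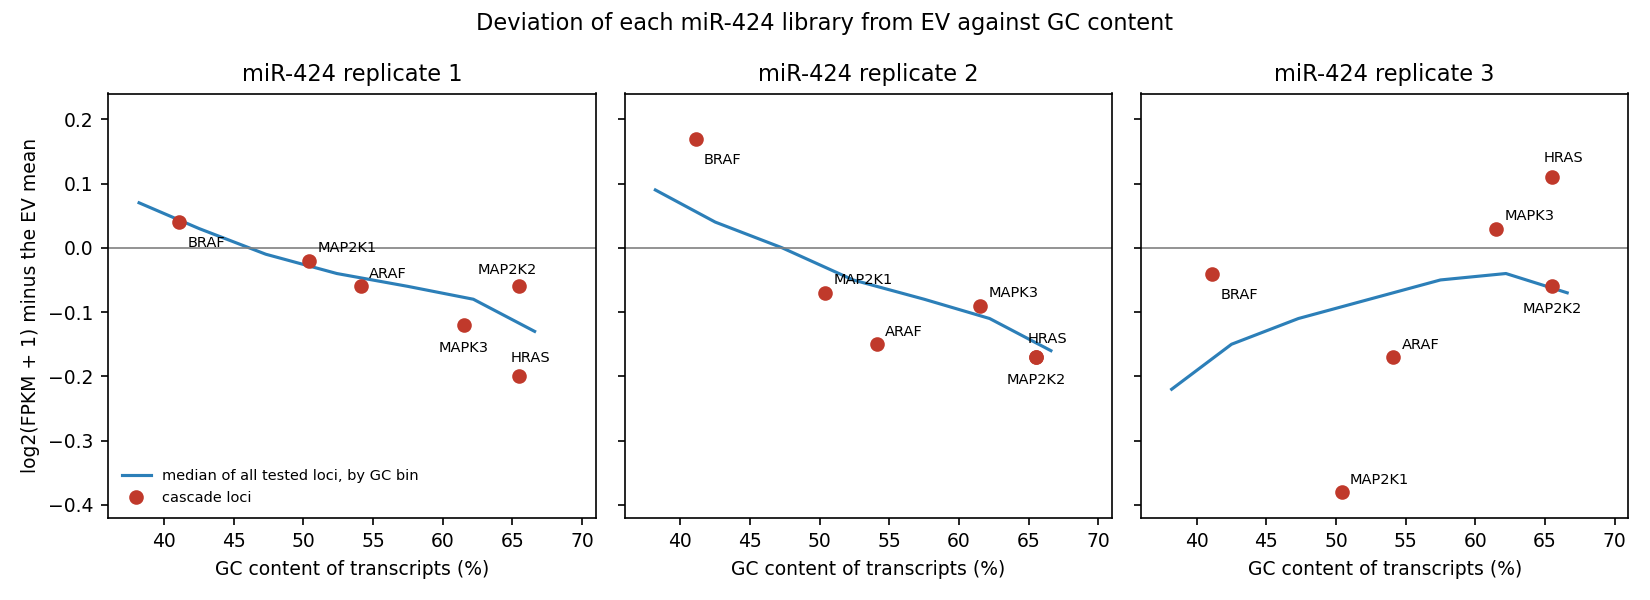
Deviation of log2(FPKM + 1) from the EV mean against transcript GC content (%), 1 panel per miR-424 library; red points are the 6 cascade loci and the blue line joins the medians of all tested loci in bins of GC content. The line falls with GC content in replicates 1 and 2 and rises over most of the range in replicate 3, and HRAS lies at -0.20, -0.17 and 0.11.

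**Figure D3:**
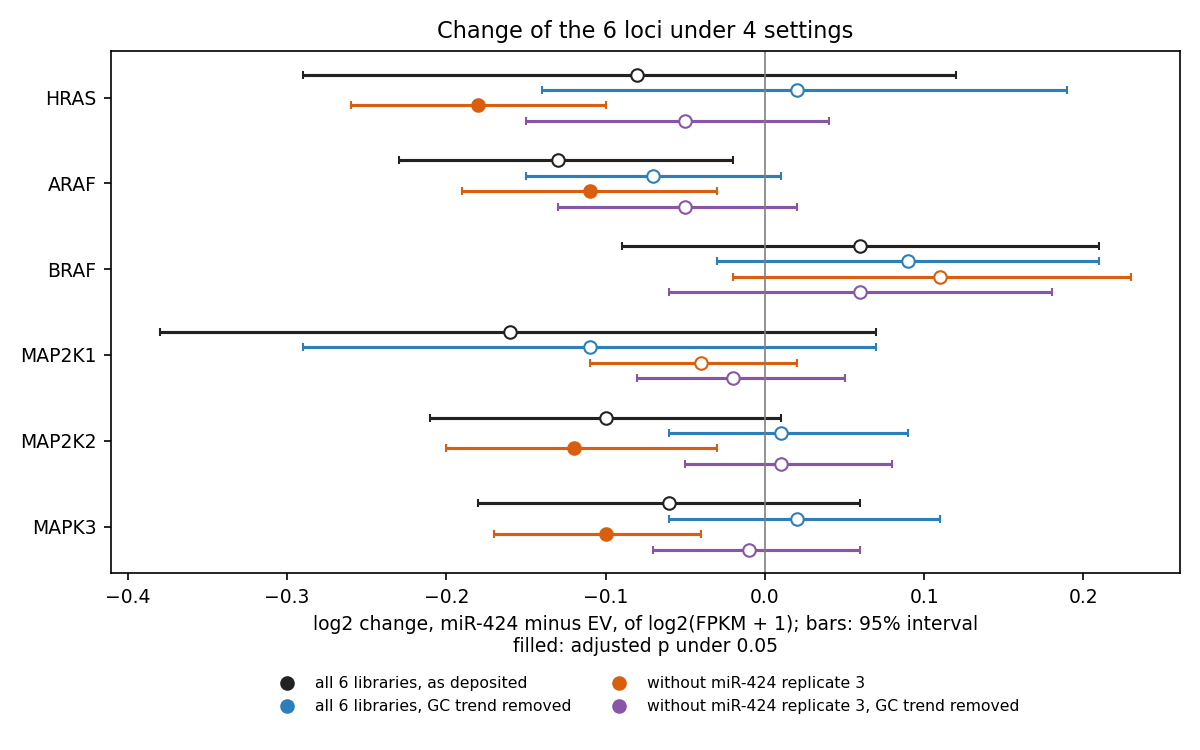
Log2 change (miR-424 minus EV, log2(FPKM + 1) scale) of each locus with its 95% interval under 4 settings; filled points passed an adjusted p of 0.05. With all libraries as deposited no point is filled, 4 are filled without miR-424 replicate 3, and 0 are filled in the 2 settings with the GC trend removed.

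The genes around the cascade were read from 8 lists of 105 genes, of which the loci of 91 were tested, 5 rose and 9 fell (limma, Benjamini-Hochberg adjusted p under 0.05), where 1.24% of all tested loci rose and 6.32% fell. The median log2 change was -0.04 over the 91 genes, lowest for the related MAP kinases (-0.10) and highest for the transcripts that follow ERK activity (0.06), beside -0.05 over all tested loci. Upstream, 0 of 6 tested adaptors and exchange factors, which bring RAS to GTP, passed in either direction (1 at an unadjusted p under 0.05). The adaptor gene SHC1 was at 193 ± 2.03 FPKM without and 196 ± 18.9 FPKM with miR-424, and PTPN11, which encodes the phosphatase SHP2, at 61.3 ± 0.427 and 63.2 ± 5.93 FPKM (SD, n = 3). Also 0 of 11 related RAS-family GTPases passed (1 at an unadjusted p under 0.05). Their most abundant members, RHEB (134 ± 1.90 to 125 ± 18.4 FPKM) and RAP1B (95.9 ± 0.337 to 96.1 ± 8.41 FPKM), act in growth signalling and adhesion. Without miR-424 replicate 3, 2 rose and 1 fell among the adaptors and 5 rose among the GTPases, where 14.9% of all tested loci rose and 22.2% fell.

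Of 8 tested genes of GTPase-activating proteins, which switch RAS off, 1 fell. DAB2IP was at 3.96, 3.86 and 3.97 FPKM in EV, against 2.77, 2.66 and 2.92 FPKM with miR-424 (log2 change -0.38 ± 0.05, SE; limma, Benjamini-Hochberg adjusted p = 0.00687). Its groups lay far apart. The call ended without EV replicate 1, 2 or 3 (adjusted p = 0.0573, 0.0531 and 0.0556, limma), while the log2 change stayed at -0.38, -0.39 and -0.38. In each of these omissions at most 1.03% of all tested loci passed, against 7.56% with all libraries. Without miR-424 replicate 1 or 2 the share was 2.96% or 3.87%. A call that ended in such omissions, here or below, thus went with a loss of calls over all loci. Of 9 loci with genes that process RAS proteins or move their lipid anchors 2 fell, of which LYPLA2 alone has a value of its own. The other was the locus of RCE1, the protease that trims the tail of prenylated RAS, which is merged with C11orf80, so that the fall cannot be assigned to RCE1. It went from 11.5, 11.8 and 12.1 FPKM to 8.54, 7.96 and 8.44 FPKM (-0.46 ± 0.04, adjusted p = 0.00398, limma). LYPLA2, a gene of a thioesterase that removes palmitate from proteins, went from 27.3 ± 0.603 to 21.2 ± 0.435 FPKM (SD, n = 3), a log2 change of -0.35. Its call ended without EV replicate 1 or 3 (adjusted p = 0.0550 and 0.0525, limma), at log2 changes of -0.35 and -0.33.

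Among 20 tested scaffolds and RAF regulators 2 fell, and both encode 14-3-3 proteins, which bind phosphorylated RAF. The 14-3-3 genes YWHAB, YWHAE, YWHAG and YWHAZ of this list did not pass (log2 changes 0.04, -0.08, 0.04 and -0.01). Without miR-424 replicate 3, YWHAB, YWHAG and YWHAZ were higher (adjusted p = 0.0115, 0.00518 and 0.00186, limma), where 14.9% of all tested loci rose. YWHAE did not pass in that setting (-0.02). YWHAH was at 68.3, 68.8 and 67.7 FPKM in EV, against 52.7, 53.2 and 52.0 FPKM with miR-424 (log2 change -0.37 ± 0.03, SE; limma, Benjamini-Hochberg adjusted p = 0.00286). All 3 miR-424 libraries, replicate 3 included, lay close together here, and YWHAH passed in 17 of 17 alternative settings, as did the RCE1/C11orf80 locus. YWHAQ went from 335 ± 4.30 to 298 ± 6.28 FPKM (SD, n = 3) and had a log2 change of -0.17. With the GC trend removed it was -0.14 and did not pass (adjusted p = 0.204), and with replicate 3 also left out it was -0.21 and passed (adjusted p = 0.000506, limma). YWHAQ did not pass with median-of-ratios scaling (0.268) or once any 1 library other than miR-424 replicate 3 was left out (0.0993 to 0.175, limma). In these omissions its log2 change lay between -0.18 and -0.15, and at most 3.87% of all tested loci passed. Of 17 tested MAP kinases and kinase kinases outside the cascade 2 fell, MAP3K3 (7.18 ± 0.152 to 5.92 ± 0.326 FPKM) and MAP3K11 (10.5 ± 0.198 to 8.93 ± 0.340 FPKM). Neither passed once any 1 library other than miR-424 replicate 3 was left out (adjusted p = 0.0743 to 0.165, limma) or with median-of-ratios scaling between libraries (0.109 for each). In these omissions the log2 change lay between -0.26 and -0.20 for MAP3K3 and between -0.24 and -0.19 for MAP3K11. With the GC trend removed, MAP3K3 passed at -0.17 (adjusted p = 0.0314), while MAP3K11, with a GC content of 66.6%, went from -0.22 to -0.10 and did not pass (adjusted p = 0.105, limma). With replicate 3 also left out, MAP3K11 was at -0.08 (adjusted p = 0.0905).

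Downstream, RPS6KA2, which encodes the ERK-activated kinase RSK3, rose among 11 tested ERK substrates and MKNK1, which encodes a kinase of a translation initiation factor, fell. RPS6KA2 was at 10.9, 10.2 and 10.3 FPKM in EV, against 13.5, 13.6 and 13.5 FPKM with miR-424 (log2 change 0.34 ± 0.04, SE; limma, Benjamini-Hochberg adjusted p = 0.00736). The groups did not overlap and the 3 miR-424 libraries were nearly equal. The call ended without EV replicate 2 or 3 (adjusted p = 0.0627 and 0.0588, limma), at a log2 change of 0.33 in both. At most 1.03% of all tested loci passed in these omissions. MKNK1 went from 6.63 ± 0.164 to 5.69 ± 0.116 FPKM (log2 change -0.19, adjusted p = 0.0423, limma). It did not pass once any 1 library other than miR-424 replicate 3 was left out (0.0930 to 0.187, limma). In these omissions its log2 change lay between -0.20 and -0.17, and at most 3.87% of all tested loci passed. Of 9 tested transcripts that follow ERK activity, a list of 10 often used as a readout of the pathway, 4 rose and 1 fell, while DUSP4, EPHA2, ETV4 and ETV5 did not pass.

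The rise of DUSP6, an ERK phosphatase gene, was from 13.0, 12.6 and 12.9 to 22.0, 23.4 and 20.3 FPKM, and it passed in 17 of 17 alternative settings. The sprouty genes SPRY2 (log2 change 0.23 ± 0.04, SE) and SPRY4 (0.36 ± 0.05) and PHLDA1 (0.29 ± 0.06, named after its values were seen) also rose. Without EV replicate 1, 2 or 3, SPRY2, SPRY4 and PHLDA1 did not pass (limma, adjusted p = 0.0802 to 0.149), and without miR-424 replicate 1 or 2 SPRY2 and PHLDA1 did not (0.0532 to 0.102). In these omissions the log2 change was 0.22 to 0.24 for SPRY2 and 0.26 to 0.31 for PHLDA1. For SPRY4 it was 0.36 without any 1 EV library. At most 1.03% of all tested loci passed without an EV library, and 2.96% or 3.87% without miR-424 replicate 1 or 2. CCND1, the cyclin D1 gene, fell from 82.3 ± 1.5 to 64.6 ± 1.28 FPKM (SD, n = 3), a log2 change of -0.34. Its call ended without EV replicate 2 (adjusted p = 0.0510, limma), where the log2 change was also -0.34. By the search used for the members, the 3' UTR of CCND1 (3192 nt) held 2 matches of 7 or 8 letters, 1 of them of 8. Among 3' UTRs of 2001 nt or more, 10.2% held the 8-letter match. Among the genes that rose, SPRY4 held 1 match and DUSP6, SPRY2, PHLDA1 and RPS6KA2 held 0. Of the other searched genes that fell, MKNK1 held 2 (1 of 8 letters), MAP3K3 2, DAB2IP, LYPLA2, YWHAH and YWHAQ 1 each and MAP3K11 0. A match of 7 or 8 letters was held by 16.2% of 3' UTRs of 501 to 1000 nt. The share was 25.8% at 1001 to 2000 nt and 49.2% at 2001 nt or more. Listed genes that did not pass ranged from 0 matches, as in SHC1, to 3, as in GRB2, MAPK8, MAPK9 and RPS6KA3. The part of the matches in the changes was not tested. The members and lists were chosen with earlier results of these data known, so the direction of the transcripts that follow ERK activity is not independent evidence.

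**Figure D4:**
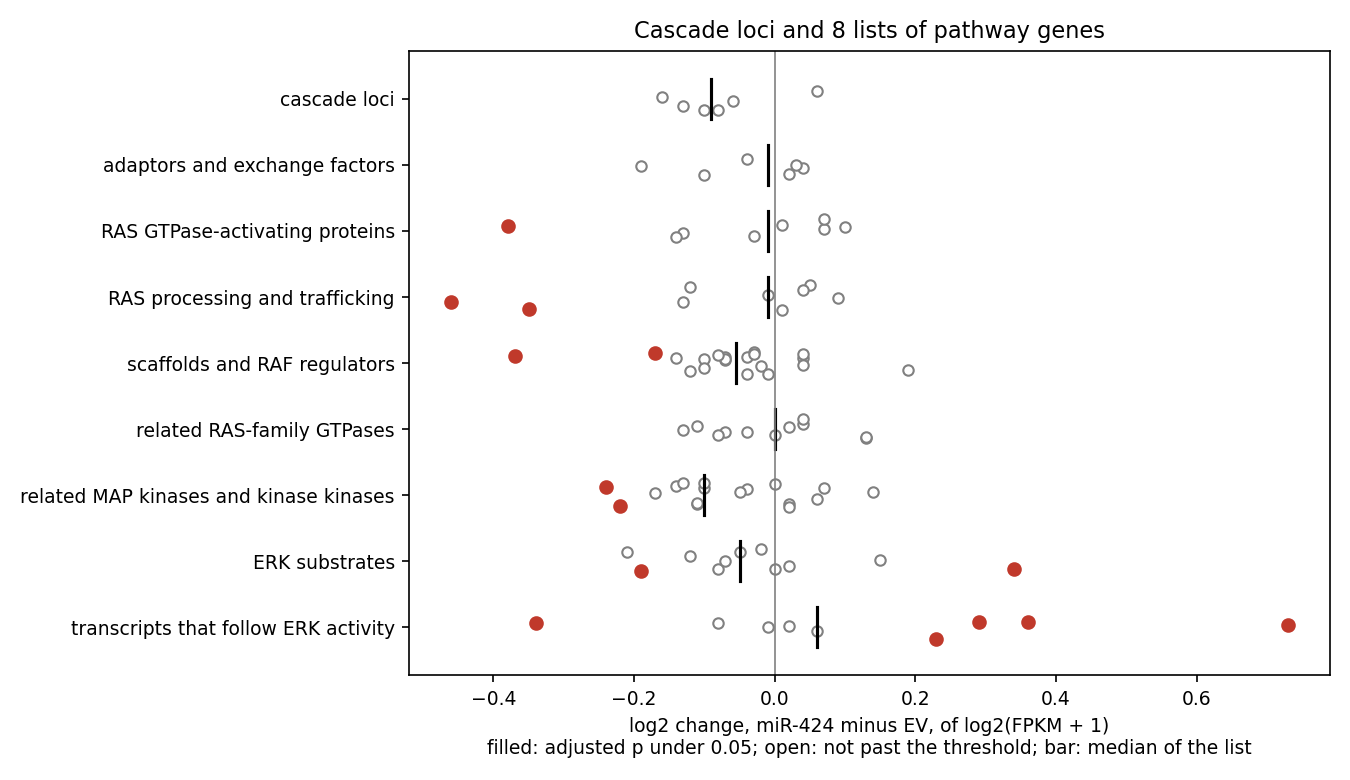
Log2 change (miR-424 minus EV, log2(FPKM + 1) scale) of the 6 cascade loci and of the tested genes in 8 lists; each point is a locus, filled where the adjusted p was under 0.05, and the bar is the median of the list. The cascade loci lie between -0.16 and 0.06 with no filled point, and DUSP6 lies at the right end at 0.73.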

How the data were processed

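The authors deposited 1 table of FPKM values, with 1 column per library matched to samples by title. The submitters' processing notes list hg19 and GRCh37 as builds and, as tools, Cufflinks 1.3.0, Cuffdiff and TopHat 1.4.1, in no stated role. What annotation, strand setting and scaling were used is unknown here. FPKM hold no fragment counts, so no count test, interval of counting error or detection limit was used. From these values, log2(FPKM + 1) was computed for 11574 loci that averaged 1 FPKM or more and compared with limma 3.58.1 in R 4.3.3 (trended prior variance, no covariate, two-sided, Benjamini-Hochberg adjustment over all tested loci, threshold 0.05). The code was tested on simulated data. The simulation took the spread of both groups from the EV libraries and held no library that stands apart. It therefore does not show how the test behaves with miR-424 replicate 3. Ratios within a library were compared with exact permutation tests. Coordinates of loci are hg19, those of sequences GRCh38. GC content came from GENCODE 29 transcripts (98.6% of tested loci, 6 of 6 loci of members). Its trend was removed per library with lowess, fitted to the deviation from the EV mean. A group difference that follows GC content is removed with it. The lists, members and tests were chosen with earlier results of these data known. Named genes were all members, of each list the called genes of smallest adjusted p (up to 4) or, with none called, the 2 most abundant, and for members without overlap the loci of highest correlation. Some genes that this rule selects, and the row that holds NRAS, are not reported here. The alternatives were another pseudocount (0.1), no filter, a minimum of 5 FPKM, median-of-ratios and quantile scaling, sample weights, no trended prior, the replicate block, GC removal and leaving out each library.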

Additional observations from a re-analysis of the deposited data

How the results depend on the processing

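Of the 6 cascade loci, 0 rose in any of the 17 alternatives, and 3 fell with limma sample weights. Over the omissions of 1 library 0 to 4 fell, and only the omission of miR-424 replicate 3 gave calls. In that omission 37.2% of all tested loci passed. The share was 2.96% without miR-424 replicate 1, 3.87% without replicate 2 and at most 1.03% without any 1 EV library. At these low shares, 0 of 6 says little about the cascade. The log2 changes that changed sign were HRAS (0.02), MAP2K2 (0.01) and MAPK3 (0.02) with the GC trend removed, with and without the replicate block, and MAP2K2 (0.01) also with the GC trend removed and miR-424 replicate 3 left out. The MAP2K1/MAP2K2 difference ran from -0.15 to 0.07 over the omissions. Rises and falls of all tested loci, 144 and 731, became 308 and 495 under median-of-ratios scaling, 319 and 447 under quantile normalization, 107 and 468 at a minimum of 5 FPKM, 1256 and 2307 with sample weights, 677 and 838 with the GC trend removed, 364 and 524 with that and the replicate block, and 1670 and 1731 with it and replicate 3 left out. Leaving out 1 library gave 31 to 1728 and 77 to 2574. Rises and falls in the pathway lists, 5 and 9, became 21 and 18 with sample weights, 10 and 8 with the GC trend removed, 26 and 15 with that and replicate 3 left out, and 1 to 27 and 3 to 20 over the omissions; falls numbered 5 under median-of-ratios scaling, and also 5 under the replicate block combined with GC removal.

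The replicate numbers were not shown to pair libraries. Deviations of same-numbered libraries from their group means correlated at 0.05, 0.15 and 0.13 over loci, and EV replicate 1 correlated best with miR-424 replicate 2 (0.06). With the replicate block, 0 cascade loci passed (0 at an unadjusted p under 0.05, against 21.6% of all tested loci), 79 loci rose and 270 fell, and 3 pathway genes rose and 5 fell. Scaling moved the median of all loci from -0.05 to 0.00 (median-of-ratios) and 0.01 (quantile). Where a call or a direction changed, the cause was not tested. Read depth is unknown, so precision rests on 3 libraries per group.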

Other observations

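TIMP1, a gene of a metalloproteinase inhibitor, was chosen after its values were seen because it shares the listed span of ARAF on chromosome X with a row of its own. It was at 134, 128 and 131 FPKM in EV, against 187, 177 and 193 FPKM in miR-424 replicates 1, 2 and 3 (log2 change 0.50 ± 0.04, SE; limma, Benjamini-Hochberg adjusted p = 0.00271), whereas ARAF was slightly lower in each miR-424 library. SNAPC5, a gene of a subunit of the complex that activates snRNA promoters and whose row shares the span of MAP2K1, had 7.64 ± 0.212 FPKM without and 7.02 ± 0.415 FPKM with miR-424 (SD, n = 3; adjusted p by limma = 0.278). In miR-424 replicate 3, where MAP2K1 was lowest, SNAPC5 read 7.42 FPKM, the highest of its 3 miR-424 values.

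For the members whose groups did not overlap, the profile over the 6 libraries correlated most with CYGB for ARAF (Pearson r of log2(FPKM + 1) of 0.999) and with POC1A for MAP2K2 (0.992). The levels themselves differed, with means of 1.39 FPKM in EV and 0.850 FPKM with miR-424 for CYGB and of 6.50 and 5.85 FPKM for POC1A. With 6 libraries in 2 groups, 139 loci reached an r above 0.95 with ARAF and 48 with MAP2K2, so these names are a description of the libraries.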
